A study of Mus musculus with 2 samples.

Results

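Plasma cells were studied as 121 cells among 9695 kept barcodes of a droplet single-cell RNA-seq experiment (10x Genomics 3′ V3 chemistry). A barcode, the sequence tag of one droplet, was kept if it had 200 or more detected genes and if mitochondrial genes gave no more than 20% of its UMIs. A UMI is one counted RNA molecule. Members were the kept barcodes with at least 20 UMIs of Jchain, 5 of Xbp1 and 3 of Mzb1 and at most 2 UMIs over the T cell genes Cd3e, Cd3d, Cd3g and Trac. These 82 cells of the ad libitum library and 39 of the fasting-mimicking diet (FMD) library were then divided into IgA cells, in which Igha held more than 50% of the UMIs of 8 heavy chain constant genes, and other cells.

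Both libraries came from leukocytes sorted for CD45, the common leukocyte antigen, from male C57BL/6 mice with colorectal tumors raised by azoxymethane (AOM, a carcinogen, 12 mg/kg) with DSS (dextran sodium sulfate, an irritant of the gut lining, at 2.5% of the drinking water for 7 days and followed by 14 days of water) in 3 cycles. One group ate ad libitum and the other received the FMD, a regimen that imitates fasting, from cycle 2. Each diet was 1 library pooled from 4 mice, so mice cannot be told apart, no difference between diets was tested, and a difference between the diets cannot be told apart from a difference between the pools or preparations. The titles call the tissue tumor, the extraction protocol mentions normal colon as well, and age is not given in the sources used here. The libraries held 35712762 and 35280790 UMIs over 6089 and 5877 barcodes. They shared 7 barcode sequences, of which 0 were members.

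Plasma cells are the final stage of B cell development. They devote the endoplasmic reticulum (ER) to secreting antibody. In the colon most of them make IgA, which is joined into dimers by the J chain (Jchain) and carried across the epithelium into the lumen. XBP1 drives the secretory program, MZB1 is an ER co-chaperone of antibody assembly, syndecan-1 (Sdc1, CD138) is the classical surface marker, and DERL3 serves ER-associated degradation.

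The expanded ER was visible in the transcripts of the members, and some genes of its folding machinery carry a known promoter element. Antibody-rich members, defined below, were set beside barcodes of B cells (2697 and 2452, with at least 5 UMIs of B genes and no T cell UMI). Of 24 ER folding and disulfide genes, 22 were at least 2-fold higher in the antibody-rich members in each library (with 1 CPM added to each level), where 17.6% and 18.1% of all 11056 genes with at least 20 UMIs were. The list's summed level was 7.43-fold higher in the ad libitum library and 6.79-fold in the FMD library. Because the members were chosen on 3 genes of this program, these folds are a description. Hsp90b1, an ER chaperone, was at 6719 and 5746 UMIs per 1000000 UMIs outside immunoglobulin and mitochondrial genes (CPM), against 525 and 560 in B barcodes. Hspa5, the chaperone BiP that first binds antibody heavy chains, was at 6292 and 6065 CPM against 1110 and 1104. Calr, a lectin chaperone, was at 1881 and 1869 against 781 and 848, and Derl3 at 566 and 647 against 3.8 and 3.5.

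The ER stress response element, with the letters CCAAT, 9 bases of any kind and CCACG, is bound by NF-Y and ATF6. It was searched on both strands in RefSeq promoters of GRCm38.p6, from 250 bases before to 50 after the start site. It was in 7 of 20 ER folding genes with a promoter entry (35%), 2 of 13 ER-associated degradation genes and 0 of the 15 translocation, 17 glycosylation and 16 vesicle transport genes. Over these 5 lists that is 9 of 80 genes (11.25%), against 37 of all 27025 genes with a promoter entry (0.137%). The XBP1 letters TGACGTGG were in 6 of the 80 (7.5%) and in 0.714% of all genes. The 9 genes were Hspa5, Calr, Derl3, Hsp90b1, Canx, Pdia6, Dnajc3, Creld2 and Syvn1. The 3 with the highest level in the members and the marker Derl3 are printed as the 250 bases before the start site, 5′ to 3′ in the direction of the gene, with matches on either strand in capitals.
Hsp90b1 (chr10:86705445-86705694, minus strand): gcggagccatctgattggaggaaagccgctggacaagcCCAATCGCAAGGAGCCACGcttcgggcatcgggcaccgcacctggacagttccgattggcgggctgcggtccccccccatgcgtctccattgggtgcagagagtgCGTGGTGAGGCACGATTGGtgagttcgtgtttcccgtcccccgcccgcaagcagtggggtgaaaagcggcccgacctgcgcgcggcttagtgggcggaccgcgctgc
Hspa5 (chr2:34771840-34772089, plus strand): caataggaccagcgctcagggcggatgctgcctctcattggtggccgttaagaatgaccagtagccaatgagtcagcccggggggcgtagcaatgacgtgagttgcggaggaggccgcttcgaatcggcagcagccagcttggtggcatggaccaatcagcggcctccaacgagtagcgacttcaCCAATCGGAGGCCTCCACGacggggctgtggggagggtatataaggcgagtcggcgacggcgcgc
Calr (chr8:84846932-84847181, minus strand): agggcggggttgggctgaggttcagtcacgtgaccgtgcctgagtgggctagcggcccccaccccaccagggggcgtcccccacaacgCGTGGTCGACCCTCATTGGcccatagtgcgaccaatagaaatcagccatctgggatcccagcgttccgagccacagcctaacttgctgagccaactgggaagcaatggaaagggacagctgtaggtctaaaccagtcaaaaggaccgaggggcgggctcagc
Derl3 (chr10:75893148-75893397, plus strand): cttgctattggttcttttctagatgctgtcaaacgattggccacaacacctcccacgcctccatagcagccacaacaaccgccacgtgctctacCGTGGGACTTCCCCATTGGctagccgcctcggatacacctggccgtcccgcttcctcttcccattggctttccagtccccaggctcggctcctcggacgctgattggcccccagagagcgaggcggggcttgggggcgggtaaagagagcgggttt
Hsp90b1 carries 2 matches, starting 212 and 107 bases before the start site, and those of Hspa5, Calr and Derl3 start 65, 162 and 156 bases before it. A match is a description of the letters, and factor binding was not measured.

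Not all members had the transcripts of an antibody-secreting cell. In 108 members (79 ad libitum, 29 FMD) at least 18.3% of all UMIs came from immunoglobulin genes, with medians of 55.0% and 57.8%. In the other 13 members (3 ad libitum, 10 FMD) the share was between 0.716% and 2.29%. No member lay between, and the dividing line of 10% was set after this gap had been seen. The 13 antibody-poor members had 20 to 81 Jchain UMIs, close to the minimum of the rule, whereas the antibody-rich members had 55 to 6515. Sdc1 was at 0 in 12 of the 13. They held 19 to 138 UMIs of a set of 5 B cell genes (Ms4a1 among them), 6 to 148 UMIs of 8 germinal center genes and 38 to 603 UMIs of 20 proliferation genes. Thus 13 of the 121 members go against the plasma cell label, and values below are given for all members and again for the antibody-rich ones.

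**Figure D1:**
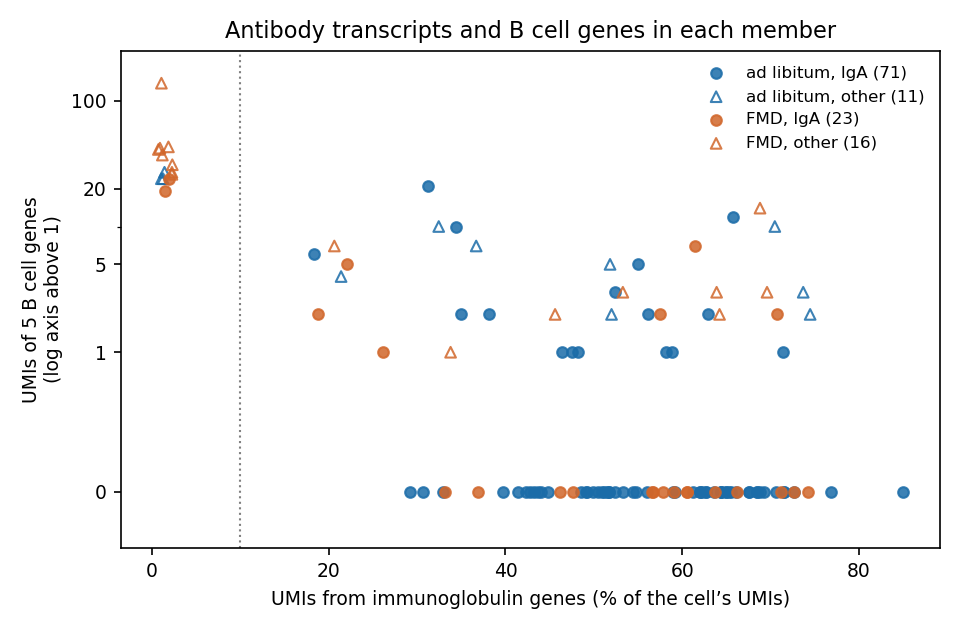
Share of a cell's UMIs from immunoglobulin genes (horizontal axis) against its UMIs of 5 B cell genes (vertical axis, logarithmic above 1) for all 121 members, by library and antibody class. The 13 members left of the dotted line at 10% all hold at least 19 B gene UMIs, and 70 of the 92 IgA members right of it hold 0.

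At the edge of the rule, the kept barcodes that met its other terms but missed Jchain came up to 17 UMIs in the ad libitum library and 18 in the FMD library, and the nearest members inside had 20 in each. The limit on T cell UMIs removed 8 ad libitum and 3 FMD barcodes, all antibody-rich and with 4 to 21 T cell UMIs. Among the antibody-rich members, the T cell list summed to 0 to 7 UMIs per cell, the list of natural killer and innate lymphoid genes to 0 to 3, and erythroid and platelet genes to 0. The 12 myeloid genes summed to 0 to 44 UMIs, mostly of Cst3, and Fcer1g reached 15 UMIs in 1 cell, while Csf1r, C1qa and Adgre1 were at 0 in all 108. Antibody RNA was also counted in barcodes of T cells, where 71.1% of ad libitum and 37.7% of FMD barcodes (median depths 7367 and 7534.5 UMIs) had an Igha UMI. The mean was 1.47 and 1.51 Igha UMIs over all T cell barcodes, against a median of 6131 and 7877 in IgA antibody-rich members.

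Members made up 1.66% of kept barcodes in the ad libitum library (82 of 4953, exact 95% binomial interval 1.32 to 2.05) and 0.822% in the FMD library (39 of 4742, 0.585 to 1.12). All intervals here cover counting error only, since there is no replicate of a diet. The log2 ratio of FMD over ad libitum was −1.01 [−1.56, −0.46], and it was −1.38 [−1.99, −0.77] for the antibody-rich members. The antibody-poor members went the other way, from 3 of 82 members (3.66%) to 10 of 39 (25.6%).

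The IgA cells accounted for the lower number. Of 4953 kept ad libitum barcodes 71 were IgA antibody-rich members (1.43% [1.12, 1.80]), and of 4742 kept FMD barcodes 21 were (0.443% [0.274, 0.676]). This is 3.24-fold fewer under the FMD, with a log2 ratio of −1.69 [−2.39, −0.99]. The other antibody-rich members were 8 and 8 (0.162% and 0.169%), a log2 ratio of 0.06 [−1.35, 1.48], an interval that holds both a 2-fold decrease and a 2-fold increase. As a share of all members, IgA cells made up 86.6% [77.3, 93.1] of the 82 ad libitum members and 59.0% [42.1, 74.4] of the 39 FMD members. Among antibody-rich members the shares were 89.9% [81.0, 95.5] and 72.4% [52.8, 87.3], with a log2 ratio of −0.31 [−0.65, 0.03]. Fewer cells and a lower yield of these cells during preparation cannot be told apart in these data.

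Most heavy chain UMIs of a member came from 1 class. In ad libitum IgA members at least 96.9% of heavy chain constant UMIs were Igha, and in the others at most 7.89%. The FMD values were 56% and 7.02%, and the IgA member at 56% was antibody-poor, with 75 heavy chain UMIs. The ad libitum cell at 7.89%, led by Ighg2c, had 38 heavy chain UMIs beside 10119 of the kappa constant gene, so its class rests on few counts. The 16 other antibody-rich members were led by Ighg1 (2), Ighg2b (3) and Ighg2c (3) in the ad libitum library and by Ighm (2), Ighg2b (2), Ighg2c (1) and Ighg3 (3) in the FMD library. The antibody-poor members were led by Ighm in 3 of 3 ad libitum cells, and by Ighm (4), Ighg2b (4) and Igha (2) in the FMD cells. A lambda light chain was carried by 5 of 79 ad libitum antibody-rich members (6.33% [2.09, 14.2]) and 0 of 29 FMD ones (0% [0, 11.9], where 3 cells would be 10.3%). Members held 87.9% and 92.3% of all Igha UMIs of kept barcodes.

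**Figure D2:**
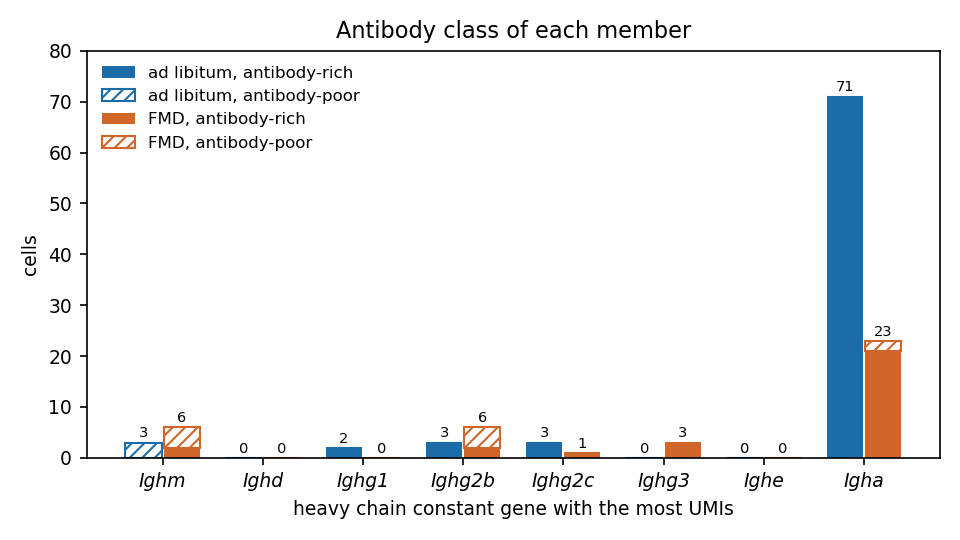
Number of members (vertical axis) by the heavy chain constant gene with the most UMIs (horizontal axis), for the ad libitum and FMD libraries, with antibody-poor members hatched. Igha leads in 71 ad libitum and 23 FMD members, and every other gene in at most 6 members of a library.

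The variable segments were diverse. An Ighv segment could be called (at least 10 UMIs and more than 50% of the cell's Ighv UMIs) in 60 of the 108 antibody-rich members, and these used 35 segments, 7 of them in both libraries. Among 41 called ad libitum IgA cells 25 segments were used, led by Ighv1-53 (5 cells), Ighv7-3 (4) and Ighv1-64 (3). Among 13 called FMD IgA cells 12 segments were used. A heavy and kappa pair was called in 35 ad libitum IgA cells, giving 28 distinct pairs. Of these pairs, 4 were in more than 1 cell. Ighv1-53 with Igkv1-110, Ighv1-78 with Igkv3-2 and Ighv7-3 with Igkv10-96 were each in 3 cells. Ighv1-53 with Igkv1-110 was also called in an ad libitum antibody-rich cell that was not IgA. Ighv7-3 with Igkv10-96 was also called in an FMD cell led by Ighm, from the other pool of mice. In the FMD library 12 IgA cells with a called pair gave 11 pairs, with Ighv1-80 and Igkv4-55 in 2 cells. Reads at the 3′ end cover variable segments thinly, and cells of 1 pool may descend from the same mouse.

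Over all members, IgA cells had lower levels of B cell genes than the others. UMIs were summed over each class in each library and tested with edgeR's quasi-likelihood test, with the library as a block, over 4 sums and 1 residual degree of freedom. The sums come from the same 2 pooled libraries. With the block, the p-values measure how much the difference between the classes varied between these libraries, which also differ in diet. They do not measure the spread between mice. Of 4825 genes, 149 (3.09%) were higher and 265 (5.49%) lower in IgA members at a Benjamini-Hochberg adjusted p under 0.05. Lower genes included 15 of 16 tested B cell genes, 5 of 7 germinal center genes and 18 of 20 proliferation genes. The median log2 ratios of these lists were −1.99, −2.71 and −2.13, beside 0.01 over all genes. However, 11 of the 27 other members were antibody-poor and only 2 of the 94 IgA members were. Among antibody-rich members alone, 7 genes (0.173%) were higher and 11 (0.272%) lower of 4050 tested, and 2 of 8 B cell genes, 1 of 3 germinal center genes and 0 of 10 proliferation genes were lower. At an unadjusted p under 0.05, 241 genes passed there, against 1133 over all members. Jchain, Xbp1 and Mzb1, on which the members were chosen, were left in these tests. Jchain is 1 of the 7 higher genes, so its place among them is a description. The division into antibody-rich and antibody-poor cells was made after seeing the data. Of the genes that passed among antibody-rich members, DESeq2 did not call Serpina3f, Serpina3g, Tnfrsf17, Oosp1 and Irf7, and edgeR without the library block did not call Serpina3g, Tnfrsf17, Cd79a, Irf7, Cox4i2 and Prg2.

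The genes higher in IgA antibody-rich members included receptors of mucosal homing and survival. Ccr10, the receptor for the epithelial chemokine CCL28, had a UMI in 61 of 71 ad libitum IgA cells (0 to 38 UMIs per cell, median 9) and 19 of 21 FMD IgA cells (0 to 31, median 8). In the other antibody-rich members its UMIs were 16, 1 and 1 in 3 ad libitum cells and 8 and 2 in 2 FMD cells, and 0 in the other 11. With each cell thinned to 5000 UMIs outside immunoglobulin and mitochondrial genes, which left out 5 ad libitum IgA cells, Ccr10 was detected in 72.7% and 71.4% of IgA cells and in 1 of 8 others in each library. Ccr10 was at 549 and 480 CPM in IgA cells against 115 and 87.6, and at 0 in all 13 antibody-poor members. The log2 ratio over all members was 3.42 with an adjusted p of 0.00022 by edgeR, and it was positive in both libraries. Among antibody-rich members alone it was 2.42, with an edgeR adjusted p of 0.0070.

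Tnfrsf17 encodes BCMA, the receptor for the plasma cell survival factor APRIL. It was detected in 61 of 71 and 20 of 21 IgA antibody-rich cells (0 to 19 UMIs, median 4, and 0 to 14, median 4). Of the other antibody-rich members 1 of 8 had it in each library, with 5 and 10 UMIs. The log2 ratio over all members was 3.43, with an edgeR adjusted p of 0.0004. Among antibody-rich members Tnfrsf17 was at the threshold, with an adjusted p of 0.0497 by edgeR, 0.0632 by edgeR without the block and 0.158 by DESeq2. The related receptor gene Tnfrsf13b (TACI) was at 266 and 244 CPM in IgA cells and at 223 and 289 in the other antibody-rich cells, so its levels lay close together. Over all members Tnfrsf13b had an edgeR adjusted p of 0.053.

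Txndc5, an ER protein disulfide isomerase, had 0 to 326 UMIs in ad libitum IgA cells (median 62) and 22 to 179 in FMD IgA cells (median 81). The other antibody-rich cells had 3 to 49 (median 10.5) and 1 to 69 (median 7), so the ranges overlapped while the summed levels were 4206 and 3930 against 797 and 1401 CPM. Over all members the log2 ratio was 2.79 and the edgeR adjusted p 8.7e-07, and among antibody-rich members they were 2.02 and 0.0050. Of the 24 ER folding genes it was the 1 that passed among antibody-rich members, where 16 of the 24 had a ratio below 0 in both libraries and 4 a ratio above 0 in both (28.5% and 23.2% of all genes tested). Among all members 6 of the 24 passed, all higher. Jchain, which the rule used, had medians of 1561 and 2220 UMIs in IgA cells and 569 and 798.5 in the other antibody-rich cells. Fos, an immediate early gene, and the serpin genes Serpina3f and Serpina3g were the remaining genes that passed as higher. Serpina3f was carried by few cells, 13 of 71 and 6 of 21, with up to 107 UMIs in 1 ad libitum cell.

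**Figure D3:**
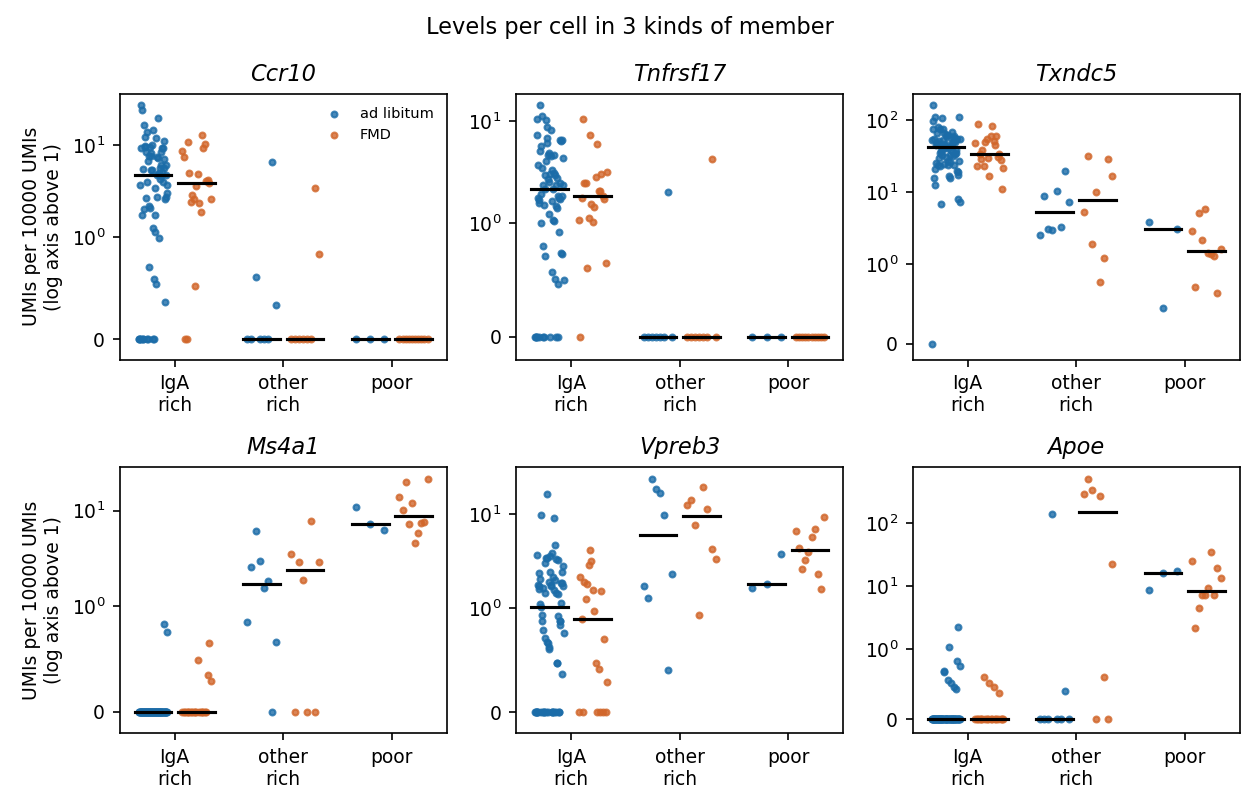
Level of 6 genes in each member, as UMIs per 10000 UMIs outside immunoglobulin and mitochondrial genes (vertical axes, logarithmic above 1), for IgA antibody-rich, other antibody-rich and antibody-poor members of each library, with bars at the medians. Ccr10 and Tnfrsf17 have a median of 0 in the other antibody-rich members of both libraries, whereas Apoe is high in 6 of these 16 cells and near 0 in the 92 IgA cells.

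The other antibody-rich members kept transcripts of earlier B cell stages. Each of these 16 cells had at least 1 UMI of the 5 B cell genes, whereas 70 of the 92 IgA antibody-rich cells had none. Ms4a1 encodes CD20, a surface protein of B cells that plasma cells lose. Its UMIs in the other antibody-rich cells were 10, 5, 4, 4, 3, 2, 1 and 0 in the ad libitum library and 13, 7, 3, 2, 2, 0, 0 and 0 in the FMD library. In IgA cells it was detected in 2 of 71 and 4 of 21, with at most 3 UMIs. The log2 ratio of IgA over others was −4.37 over all members, with an edgeR adjusted p of 0.00033. Among antibody-rich members it was −4.78, with an edgeR adjusted p of 0.0007. Vpreb3, a partner of the B cell receptor's early forms, was at 174 and 103 CPM in IgA cells and 860 and 806 in the others. Its edgeR adjusted p was 0.0019 over all members and 0.0048 among antibody-rich members. Cd79a, a signaling chain of the B cell receptor, was at 908 and 944 against 1976 and 5237 CPM. The edgeR adjusted p of Cd79a was 0.0053 over all members, 0.037 among antibody-rich members and 0.114 among them without the block. The other genes that passed as lower were Mef2b, Cox4i2, Pld4, Prg2, Cyp4f18, Oosp1 and Irf7, besides Apoe.

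Apoe, which encodes the lipid carrier apolipoprotein E, marked a subset of the non-IgA plasma cells. Its UMIs were 494, 348, 347, 163, 53, 1, 0 and 0 in the 8 FMD cells and 233, 1, 0, 0, 0, 0, 0 and 0 in the 8 ad libitum cells. The ad libitum cell with 233 is the one with 38 heavy chain UMIs. In IgA antibody-rich cells the highest values were 6 ad libitum and 1 FMD. The 6 cells with at least 50 UMIs carried Ighg2b (2), Ighg3 (2), Ighg2c (1) and Ighm (1). Apoe is also a macrophage transcript, but Lyz2, Csf1r, C1qa, C1qb and Adgre1 were at 0 in all 6, and the 12 myeloid genes summed to 4 to 15 UMIs per cell, with Cst3 at 58 UMIs over the 6 cells. The other 102 antibody-rich members had 0 to 44 myeloid UMIs. Prg2, the eosinophil major basic protein gene, had 24 to 68 UMIs in 5 of the 6 and 0 in the Ighm cell. Its highest value, 184 UMIs, was in an FMD Ighg3 cell with 1 Apoe UMI. An ad libitum non-IgA cell with 0 Apoe UMIs had 31. The log2 ratio of Apoe over all members was −5.00, with an edgeR adjusted p of 5.2e-05, and antibody-poor members held 3 to 99 UMIs. Among antibody-rich members the ratio was −7.97, with an edgeR adjusted p of 4.3e-05.

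By the rule for named genes, Runx2 (log2 ratio 5.02, edgeR adjusted p 0.003), Socs2 (3.32, 0.0048), Ppa2 (3.05, 0.039), Serpina3g (3.09, 0.0011) and Vim (2.50, 0.011) were the further genes that passed as higher in IgA members over all members. Lmna, Tmem176a and Tmem176b met the size rule but not the test (edgeR adjusted p 0.095, 0.071 and 0.096). Named genes lower in IgA members included Rgs13 (−5.20, 0.0008), Lipc (−4.00, 0.00062), Ciita (−3.74, 0.0011), Sorl1 (−3.54, 0.0016), Cdk1, Asf1b and Uhrf1, besides Apoe and Ms4a1. Rgs13 is a germinal center gene, and Cdk1, Asf1b and Uhrf1 are proliferation genes. Rgs13, Lipc, Ciita, Sorl1, Cdk1, Asf1b and Uhrf1 had too few UMIs to be tested among antibody-rich members alone, and Runx2, Socs2, Ppa2 and Vim were tested there and did not pass (edgeR adjusted p 0.106, 0.463, 0.680 and 0.106).

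The levels of the members were then compared between the diets as log2 ratios of FMD over ad libitum. With all members and 2886 genes of at least 100 UMIs, 156 genes (5.41%) were higher in the FMD library by 2-fold or more, and 21 (0.728%) were lower by as much. Antibody-rich members gave 14 higher (0.599%) and 9 lower (0.385%) of 2339 genes, and IgA antibody-rich members gave 11 (0.547%) and 25 (1.24%) of 2010. Of the 156 genes, 53 had at least 100 UMIs over all antibody-rich members, and 10 of these were at least 2-fold higher there. Of all 156, 36 had a ratio below 0 in the antibody-rich members, so most of the 156 stayed at or above 0 there. The share of all genes below 0 there was not counted. The B cell, germinal center and proliferation lists had medians of 1.19, 1.55 and 1.41 over all members, beside 0.11 for all 7325 genes with at least 20 UMIs. They were at 0.11, −0.10 and 0.38 over antibody-rich members. The named genes higher with all members were Apoe (3.09 [2.93, 3.26]), Dek, H2afx, Ms4a1 (2.69 [2.35, 3.05]), Bach2, Top2a, Plac8, Ube2c, Lrmp and Rgs13. Several had a ratio below 0 without the antibody-poor cells, on few UMIs. Dek went from 2.85 over all members to −1.72 [−4.88, 0.37] over antibody-rich ones, with 16 ad libitum and 2 FMD UMIs there. Bach2 went from 2.59 to −1.72 [−7.19, 1.18], with 8 and 1 UMIs. The intervals of Dek and Bach2 include 0. Plac8, with 64 and 14 UMIs, went from 2.47 to −0.91 [−1.86, −0.06].

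**Figure D4:**
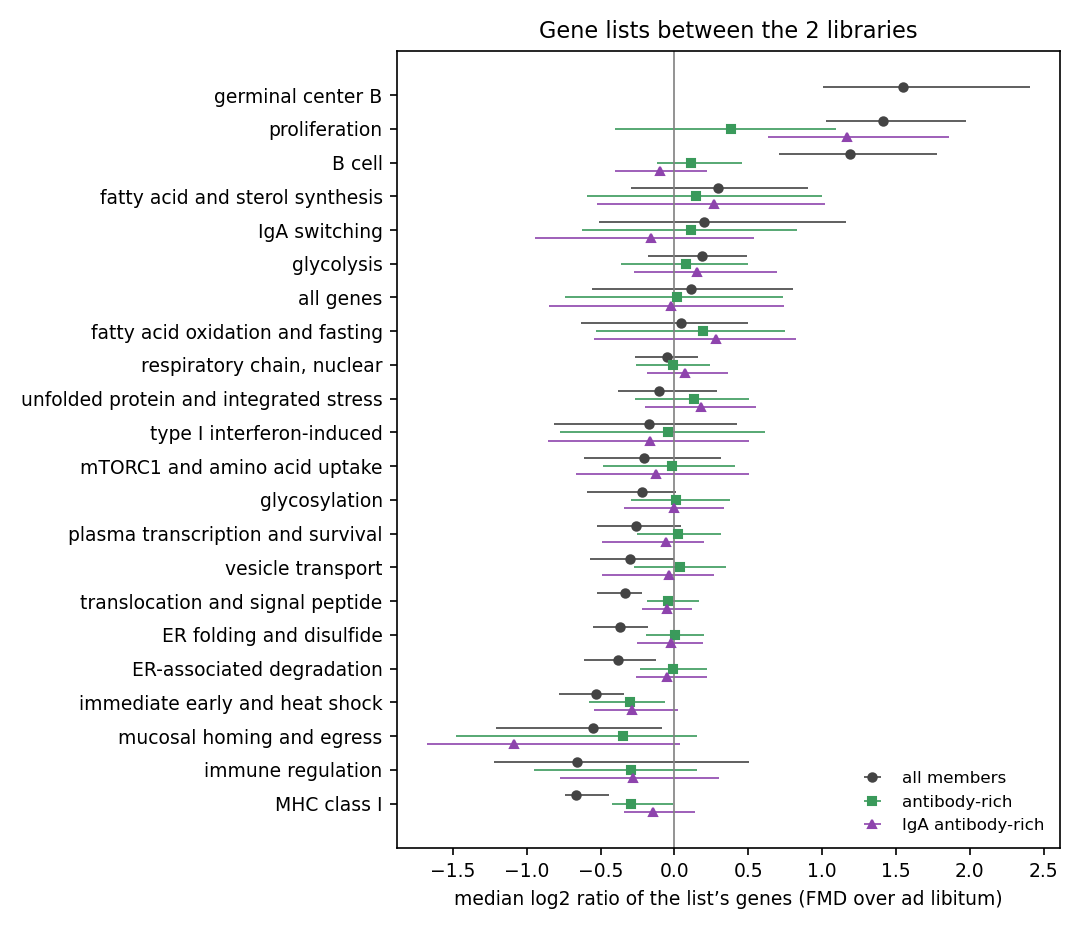
Median log2 ratio (FMD over ad libitum, horizontal axis) of gene lists with at least 5 measured genes, for all members, antibody-rich members and IgA antibody-rich members, with bars from the median lower to the median upper bound of the genes' counting intervals. The germinal center, proliferation and B cell lists stand at 1.19 to 1.55 over all members, and the 5 secretory lists lie within 0.05 of 0 over antibody-rich members.

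The secretory lists had median ratios near 0, as shares of the UMIs outside immunoglobulin and mitochondrial genes, whose medians per antibody-rich cell were 16586 and 19209. Over antibody-rich members the list medians were 0.00 for ER folding (24 genes), −0.04 for translocation (19), 0.01 for glycosylation (18), 0.04 for vesicle transport (20) and −0.01 for ER-associated degradation (14), beside 0.02 over all 6637 genes with at least 20 UMIs. Of these genes 0 were at least 2-fold higher, where 2.46% of all genes were, and 1 glycosylation gene was at least 2-fold lower, where 4.19% of all genes were. Of the 24 ER folding genes 4 had an interval above 0 and 4 below, where 5.51% and 4.63% of all genes did. Single genes of this list thus lay off 0 more often than genes at large, in both directions. Hspa5 was at −0.05 [−0.11, 0.01] and Calr at −0.01 [−0.12, 0.10], whereas Hsp90b1 was lower in the FMD library at −0.23 [−0.29, −0.17]. The nuclear respiratory chain genes had a median of −0.01 (22 genes), fatty acid oxidation and fasting genes 0.20 (17), glycolysis 0.08 (14) and mTORC1 and amino acid uptake −0.01 (20). None of these genes was at least 2-fold apart. Over all members, antibody-poor cells included, the ER folding median was −0.37.

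Klf2 and Itgb7 were the better counted of the homing and egress genes that were lower in the FMD plasma cells. Of 11 measured genes of the homing and egress list, 5 were at least 2-fold lower and 0 at least 2-fold higher over antibody-rich members, and 6 and 0 over IgA antibody-rich members, where 6.13% of all genes were lower. Over antibody-rich members 4.19% of all genes were at least 2-fold lower. The list's median was −0.35 over antibody-rich and −1.08 over IgA antibody-rich members. Among the 7 genes of the list with at least 100 UMIs, the medians were −0.16 and −0.20, and 2 were at least 2-fold lower in each. Klf2, a transcription factor that governs lymphocyte trafficking, had 472 UMIs in 71 ad libitum IgA cells (0 to 43 per cell, median 1) and 56 in 21 FMD IgA cells (0 to 14, median 1). Its level was 408 and 131 CPM, a log2 ratio of −1.64 [−2.06, −1.23], and −1.86 [−2.35, −1.40] without the highest cell of each library. The medians were equal and the ranges overlapped, so the difference lay in the cells with high values.

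Itgb7 encodes the β7 chain of the gut homing integrin α4β7. It had 270 UMIs in the ad libitum IgA cells (0 to 17 per cell, median 2) and 44 in the FMD IgA cells (0 to 6, median 2), detected in 47 of 71 and 18 of 21. The level was 233 and 103 CPM, a log2 ratio of −1.18 [−1.67, −0.71]. Its partner chain Itga4 was at −0.20 [−0.59, 0.18] in IgA cells and higher, at 0.37 [0.07, 0.67], over all antibody-rich members. Itgb1, the β1 integrin chain, had 63 and 7 UMIs (−1.73 [−3.10, −0.60]). Gpr183, an oxysterol receptor that positions B cells, had 50 and 7 UMIs (−1.40 [−2.78, −0.25]). S1pr4, a sphingosine phosphate receptor gene, had 33 and 2 UMIs (−2.61 [−5.71, −0.64]), but 34 and 11 over all antibody-rich members (−0.35 [−1.48, 0.67]). Ccr9, the receptor for the small intestinal chemokine CCL25, had 23 and 4 UMIs, with an interval that includes 0 (−1.08 [−3.08, 0.46]). Ccr10 was at −0.19 [−0.43, 0.04], Cd44 at −0.20 [−0.58, 0.16] and Selplg, the selectin ligand, at 0.14 [−0.21, 0.47].

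**Figure D5:**
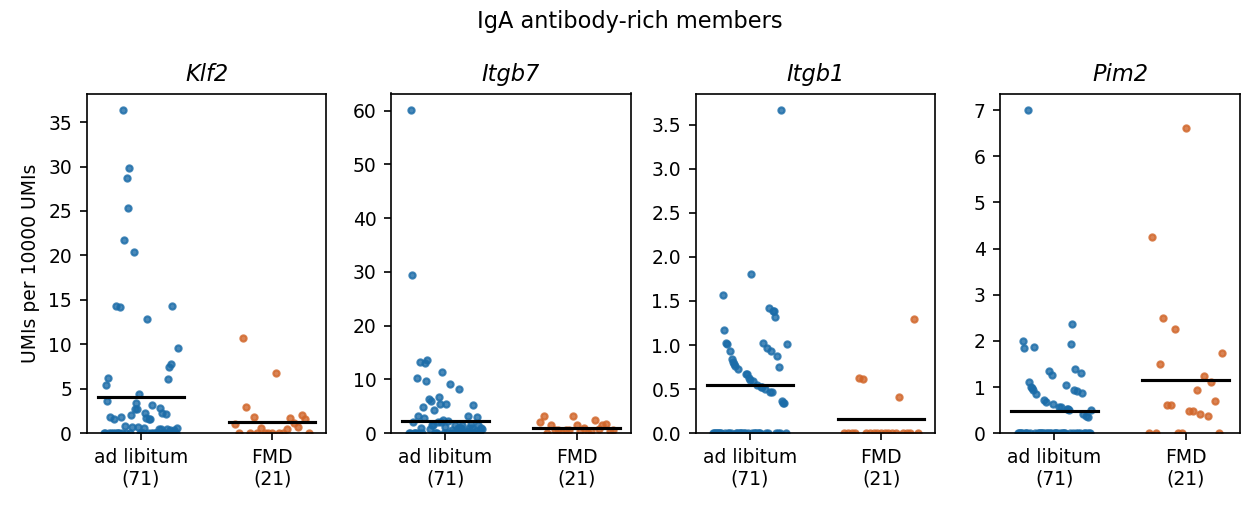
UMIs of 4 genes per 10000 UMIs outside immunoglobulin and mitochondrial genes (vertical axes) in each IgA antibody-rich member, with 71 ad libitum and 21 FMD cells drawn from the shallowest at the left to the deepest at the right, and bars at the level of the summed cells. For Klf2 and Itgb7 the highest values are ad libitum cells while many cells of both libraries lie near 0, and for Pim2 the FMD bar is higher.

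Other genes at least 2-fold lower in the FMD antibody-rich members were Kdm6b, a histone demethylase (105 and 14 UMIs, −1.63 [−2.55, −0.82]), Btg1, an antiproliferative gene (178 and 33, −1.15 [−1.73, −0.61]), Mndal (96 and 18, −1.13 [−1.95, −0.40]), Satb1, a chromatin organizer (98 and 20, −1.01 [−1.78, −0.31]), and Sptbn1 (83 and 17, −1.01 [−1.85, −0.24]). Zbp1, a nucleic acid sensor, was at −1.17 [−1.59, −0.77], with 98 of its 328 ad libitum UMIs in 1 cell and −0.82 [−1.28, −0.38] without the highest cells. Ranbp3 moved from −1.01 to −0.55 [−1.52, 0.33] without them. Btg1 and Cd83 ran the other way over all members (1.06 and 1.13).

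Smaller differences covered several stress and recognition genes. Of 23 immediate early and heat shock genes, 14 had a counting interval below 0 and 1 above over antibody-rich members, with a median of −0.30. Over all genes with at least 20 UMIs, 4.63% had an interval below 0 and 5.51% above. The lower level was not particular to these cells. The list's summed level was 18321 (ad libitum) and 14305 (FMD) CPM in antibody-rich members. It was 13389 and 10713 in B barcodes, and 14069 and 13358 in T cell barcodes. Hspa1a, the inducible heat shock protein 70, had 1561 and 333 UMIs (−0.95 [−1.12, −0.78]), with up to 352 in 1 ad libitum cell. Fos was at −0.45 [−0.62, −0.29] and Jun at −0.46 [−0.58, −0.35]. Of 11 MHC class I genes, 6 had an interval below 0 and 0 above, with a median of −0.29 and H2-K1 at −0.58 [−0.70, −0.47]. The summed MHC class I level was 11061 and 8823 CPM in antibody-rich members. It was also lower in the FMD library in B barcodes (5160 and 4710) and T cell barcodes (9369 and 8761). Cd274, which encodes PD-L1, had 306 and 79 UMIs (−0.67 [−1.05, −0.31]), and −0.35 [−0.74, 0.04] in IgA antibody-rich cells. Cd28, a receptor that supports plasma cell survival, was at −0.60 [−0.92, −0.29] and Ctla4 at −0.15 [−0.43, 0.13]. Tnfrsf17 was at −0.22 [−0.53, 0.08].

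Few genes were higher in the FMD antibody-rich members, and several rested on 1 cell. Pim2, a kinase of lymphocyte survival, had 63 and 65 UMIs (47.9 and 120 CPM, 1.33 [0.80, 1.85]), detected in 35 of 79 and 21 of 29 cells, and was at 1.27 [0.69, 1.85] in IgA antibody-rich cells. Gla, the lysosomal alpha-galactosidase gene, had 67 and 67 UMIs (1.28 [0.77, 1.79]), and Basp1 had 397 and 338 (1.05 [0.83, 1.26]), in 52 of 79 and 27 of 29 cells. Zmat2 was at 1.03 [0.51, 1.55]. Apoe was at 3.76 [3.56, 3.96] over antibody-rich members, with 233 of its 253 ad libitum UMIs in 1 cell, but at −0.81 [−2.82, 0.78] in the IgA ones, with 19 and 4 UMIs. Prg2 was at 1.85 [1.64, 2.07] over antibody-rich members, with 184 of its 437 FMD UMIs in 1 cell, and at 1.40 [1.14, 1.66] without the highest cells. In the IgA ones Prg2 was at 0.26 [−0.12, 0.63]. In Utp11, 70 of 91 FMD UMIs came from 1 cell, and without the highest cells its ratio went from 2.30 to 0.34 [−0.49, 1.13]. The histone gene Hist1h4i went from 1.24 to 0.50 [0.03, 0.96], and Hist1h2ae from 1.55 to 1.08 [0.25, 1.89].

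Dividing cells were few among the antibody-rich members. Of 79 ad libitum cells 4 (5.06% [1.40, 12.5]) and of 29 FMD cells 3 (10.3% [2.19, 27.4]) had at least 50 UMIs of the proliferation list. Among the antibody-poor members 9 of 13 did. In IgA antibody-rich cells 9 of 14 measured proliferation genes were at least 2-fold higher in the FMD library and 0 lower, with a median of 1.17, where 2.68% of all genes were higher. Over all antibody-rich members 2 of 16 were higher and 2 lower, with a median of 0.38. The sums rest on few cells: 3 of the 21 FMD IgA cells had 92, 154 and 168 UMIs of the list and the others at most 25, and 3 of the 71 ad libitum IgA cells had 105, 124 and 149 and the others at most 26. Pclaf, a partner of the replication clamp, had 20 and 60 UMIs (3.02 [2.27, 3.83]), of which 29 of the 60 were in 1 FMD cell, and Pcna itself had 65 and 57 (1.25 [0.71, 1.79]). Mki67 was at 0.38 [−0.26, 0.99]. Without the cells of at least 50 proliferation UMIs, 12 genes (0.583%) were 2-fold or more higher and 8 (0.389%) lower over antibody-rich members.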

How the data were processed

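UMI counts per gene and barcode were used as deposited by the authors, 1 matrix per library with 30905 genes. The submitters' processing notes name CASAVA 1.8, Cell Ranger 3.1.0, Seurat 2.3.4 and the build GRCm38, with no roles. Members and gene lists were chosen with earlier results of these data known. No doublet caller was run. Levels are UMIs per 1000000 UMIs outside 392 immunoglobulin and 13 mitochondrial genes. Diet ratios carry exact conditional binomial intervals, and shares carry exact Clopper-Pearson intervals (95%), both for counting error only. Genes with at least 100 UMIs were compared, and lists used at least 20. IgA and other cells were tested with edgeR 4.0.16 in R 4.3.3 (quasi-likelihood, TMM, library block, at least 50 UMIs), with Benjamini-Hochberg adjustment. DESeq2 1.42.0 was an alternative. Tested on simulated data over 4567 genes for all members, edgeR recovered 85.3% of changes of 2 on the log2 scale and 17.3% of changes of 1. For antibody-rich members (3779 genes) it recovered 84.9% and 12%. The simulated dispersion, the spread beyond counting error, was set at 0.05 and not taken from these data. Named genes were the 10 highest and 10 lowest ratios with a UMI in at least 25% of the cells of the higher group, besides examples from the lists, and some of them are not reported here. Python 3.11.15, numpy 2.4.6, scipy 1.17.1 and pandas 2.3.3 were used.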

Additional observations from a re-analysis of the deposited data

Results flagged for a closer look

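Among genes of the lists, the ratio of IgA over other antibody-rich members pointed in opposite directions in the libraries for 9. These ratios were at least 2 apart on the log2 scale, and the counting interval excluded 0 in each library. The difference between the libraries was not tested, and each class of others is 8 cells. Genes outside the lists were not searched. Over all 4050 genes tested, 23.2% had a ratio above 0 in both libraries and 28.5% below 0 in both. Atf3, Mcm5, Pclaf and Psat1 had 0 UMIs in the FMD others, so their FMD ratios were computed against a floor of 3 UMIs over these 8 cells. The lower bound of the counting interval is given in parentheses. The log2 ratio of Atf3 was −2.75 in the ad libitum library and 1.64 (1.27) in the FMD library. It was −2.41 and 1.32 (0.93) for Mcm5, −3.37 and 2.42 (2.08) for Pclaf, and −1.42 and 1.32 (0.93) for Psat1. Rrm2 was at −3.71 and, with 1 UMI in the FMD others, at 2.80 [0.19, 8.16]. The ratios were 1.40 and −0.99 for Dnajb1, −2.30 and 1.83 for Ly6a, −1.43 and 2.19 for Ly6c2, and −0.79 and 1.46 for Cd274. All 28 Pclaf UMIs of the ad libitum others were in 1 cell, and 1 of these cells had 384 UMIs of the proliferation list, where the other 7 had 3 to 12. Cd274 had 17, 16, 7, 6, 5, 4, 2 and 1 UMIs in the ad libitum others and 3, 1, 1, 1, 1, 0, 0 and 0 in the FMD others.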

How the results depend on the processing

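Without members with 5 or more B gene UMIs, the IgA share was 94.3% (ad libitum) and 76% (FMD). Shares in parentheses are of the genes compared in each setting. The 156 genes (5.41%) at least 2-fold higher in the FMD library became 90 (3.44%) without the member holding the most UMIs of each gene. On the scale of all UMIs they became 270 (9.36%), and in IgA members 28 (1.33%). With members thinned to 1000 UMIs they became 48 (5.73%) of 837 genes with at least 20 UMIs. Without thinning they became 644 (8.79%) with at least 20 UMIs and 31 (3.22%) with at least 300. The 21 lower genes (0.728%) became 7 (0.243%) on the scale of all UMIs and 53 (6.33%) after thinning. They became 226 (3.09%) with at least 20 UMIs and 10 (1.04%) with at least 300. Settings chosen after seeing the data gave 13 higher (0.66%) and 8 lower (0.406%) without the B gene members. They gave 14 (0.599%) and 9 (0.385%) in antibody-rich members and 11 higher (0.547%) in IgA antibody-rich members. In antibody-rich members that were not cycling they gave 12 (0.583%) and 8 (0.389%).

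The library is the replicate block of the IgA comparison, since both classes come from each library. With no replicate block, 56 (1.16%) of 4825 genes were higher and 128 (2.65%) lower, in place of 149 (3.09%) and 265 (5.49%). In antibody-rich members 7 (0.173%) of 4050 were lower in place of 11 (0.272%). DESeq2 gave 17 (0.352%) and 60 (1.24%), and 4 higher (0.0988%) in place of 7 (0.173%) in antibody-rich members. No filter on low counts gave 375 (3.01%) and 402 (3.23%) of 12444 genes. Antibody-rich members gave 7 and 11 of 4050, and removal of the B gene members 3 (0.0859%) and 5 (0.143%) of 3492.

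List medians in IgA members were 0.53 (B cell), 0.71 (germinal center), −1.27 (homing) and −0.15 (ER folding). In antibody-rich members they were 0.11, −0.10, 0.38 (proliferation), 0.0016 (ER folding) and −0.30 (immediate early and heat shock). In IgA antibody-rich members they were −0.10 (B cell), 0.19 (germinal center), −0.020 (ER folding) and −0.29 (immediate early). Without the B gene members they were 0.58, 0.17, 0.21, −0.0036 and −0.22 for these 5 lists. Apoe was −0.81 in IgA antibody-rich cells. Dek was −0.25 without the B gene members, −1.72 in antibody-rich and −1.02 in IgA antibody-rich cells. Bach2 was −1.72, −1.56 and, in cells not cycling, −0.60. Plac8 was −0.19 without its top member, −0.63 without the B gene members, −0.91 in antibody-rich and −0.30 in IgA antibody-rich cells. Ube2c was −0.44 in antibody-rich cells, and Atp1b1 and Slc48a1 were 0.26 after thinning. The cause was not tested. With 1 library per diet, depth sets the counting interval and the spread between mice is unknown.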

Other observations

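The lambda variable gene Iglv1 was detected in cells that carry kappa light chains. It had the most UMIs of the light chain variable segments in 31 of 66 ad libitum and 13 of 21 FMD IgA antibody-rich cells of the kappa kind. Antibody-rich members held 6.06 and 3.63 Iglv1 UMIs per 1000 Igkc UMIs, against 0.734 and 0.225 in B barcodes. Whether these reads come from Iglv1 was not tested.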
